A study of Mus musculus with 7 samples.

Results

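The genes described here are 10 imprinted genes of the mouse that are known as regulators of growth: Mest, Igf2, H19, Dlk1, Plagl1, Peg3, Grb10, Cdkn1c, Meg3 and Ndn. They were chosen by name, and 9 of the 10 were among the 12771 genes measured; Dlk1 was not analysed here. The choice was made with the difference between the groups below already known, above all that of Mest. The values of the 9 genes in that comparison are therefore given as a description, with no p-value. Of the 9, 3 were called lower (Mest, Cdkn1c and Ndn) and 1 was called higher (H19) in fibroblasts from tumors with Brca2 silenced in the cancer cells, beside 5.27% of all genes called lower and 3.77% called higher.

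Imprinted genes carry marks, set in the egg or sperm, that leave expression mainly to the copy from 1 parent. Many of them act before birth, where genes expressed from the paternal copy tend to promote growth and genes expressed from the maternal copy tend to restrain it. Several sit in clusters under a shared control region, and many fall to low levels in tissues after birth and are detected in mesenchymal and progenitor cells.

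RNA came from cancer-associated fibroblasts (CAFs) of pancreatic tumors in C57BL/6J mice, males of 8 weeks at injection by the study's methods. Cells of the mouse pancreatic ductal adenocarcinoma line KPC were placed in the pancreas, stably expressing a hairpin with no target (shControl) or a hairpin that silences Brca2 (shBrca2). Tumors were taken 2 to 3 weeks later, and live cells without CD45, CD31 and EpCAM and with podoplanin (PDPN) were sorted. The groups held 3 shControl libraries, numbered 1, 2 and 4, and 4 shBrca2 libraries, numbered 1 to 4, read at the 3' ends of transcripts. The hairpin was in the injected cancer cells, so the fibroblasts of both groups were those of the unmodified host, and a single cell line stood behind all tumors. The study describes the libraries as coming from separate mice, though the labels do not say so.

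Total counts ran from 1898679 to 5990579 per library. All 11 fibroblast markers looked at, Pdpn and Pdgfra among them, had counts in every library. Among genes tested, 9.04% were called in either direction. A call needed a DESeq2 adjusted p under 0.1, a log2 fold change over 0.5 in size and a mean normalized count over 5. Values below are counts scaled for library size (normalized counts), and fold changes are shBrca2 over shControl on the log2 scale. In sorted bulk RNA, fewer cells of a type and less RNA per cell cannot be told apart, and the counts do not separate the parental copies.

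Mest is expressed from the paternal copy and encodes a hydrolase-fold protein known from embryonic mesoderm and from growing fat tissue. It had 319, 123 and 65.2 normalized counts in libraries 1, 2 and 4 of shControl. Libraries 1 to 4 of shBrca2 had 49.1, 28.0, 34.5 and 39.6. Each shBrca2 library lay below each shControl library, but the shControl libraries differed among themselves by 4.90-fold. The group means were 169 ± 133 (SD, n = 3) and 37.8 ± 8.89 (SD, n = 4), a log2 fold change of -2.17 ± 0.44 (SE), or 4.49-fold lower. The size of this value rested on shControl replicate 1, without which it was -1.31, and Mest was called lower with any single library left out.

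Mest lies on chromosome 6 (GRCm38.p6, chr6:30733506-30748466, plus strand). By the GENCODE vM39 annotation, 3850 of its 8070 exonic bases are shared with Copg2 on the opposite strand. The strand setting of the counting was not given in the sources used here, so reads of Mest and Copg2 may not be told apart over those bases. Copg2, a coat protein subunit gene, averaged 45.4 ± 7.09 normalized counts (SD, n = 3) in shControl against 36.5 ± 7.14 (SD, n = 4) in shBrca2 and was not called (log2 fold change -0.33 ± 0.29, adjusted p = 0.63). The log2 ratio of Mest to Copg2, with a pseudocount of 1, was 1.58 ± 0.93 in shControl and 0.04 ± 0.48 in shBrca2 CAFs. The difference of -1.54 ran from -1.97 to -1.05 when each library was left out in turn.

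The RefSeq promoter table gave more than 1 start for Mest. The 250 bases before the first and before a later start are shown because Mest differed most of the 9 genes, and because the later window lies inside the gene span. Each is printed along the plus strand with CpG dinucleotides in capitals, from chr6:30733256-30733505 and chr6:30737800-30738049. The window before the start of Ndn, chr7:62348027-62348276, follows for comparison with another gene that was called lower.
Mest, first start: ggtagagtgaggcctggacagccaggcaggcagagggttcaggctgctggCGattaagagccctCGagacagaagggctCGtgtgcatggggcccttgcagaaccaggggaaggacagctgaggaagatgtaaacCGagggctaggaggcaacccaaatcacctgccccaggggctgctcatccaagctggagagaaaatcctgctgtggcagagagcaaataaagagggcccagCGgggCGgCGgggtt
Mest, later start: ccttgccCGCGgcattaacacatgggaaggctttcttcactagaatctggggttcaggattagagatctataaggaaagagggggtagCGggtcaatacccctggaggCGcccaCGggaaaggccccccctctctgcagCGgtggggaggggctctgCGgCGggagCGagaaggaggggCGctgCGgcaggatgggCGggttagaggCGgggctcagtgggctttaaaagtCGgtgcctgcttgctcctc
Ndn: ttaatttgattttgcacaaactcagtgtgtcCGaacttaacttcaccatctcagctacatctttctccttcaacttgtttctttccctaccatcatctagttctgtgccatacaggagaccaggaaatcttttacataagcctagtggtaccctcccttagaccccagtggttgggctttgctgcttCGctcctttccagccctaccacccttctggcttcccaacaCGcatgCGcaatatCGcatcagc
The first Mest window held 7 CpG, the later one 14 and the Ndn window 5, against a median of 6 over all 32851 windows of this length. As many as 14 were found in 29.4% of windows. Over 15 windows of 8 of the 10 genes, both strands, the PLAGL1 motif GGGGCCCC was found in 1 (Peg3), against 0.889% of all windows. AAGATGGCG, a YY1 motif, was found in none of the 15, against 0.606% of all. TTCNNGAA, of the heat shock element, was found in 1 (Igf2), against 7.17%. ACGTG, of the hypoxia response element, was found in 3 (Igf2, Plagl1 and Dlk1), against 16.6%.

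Mest and H19 also carry microRNAs. They are shown because both host genes were called, in opposite directions. Mir335 lies in an intron of Mest and Mir675 in an exon of H19. The mature sequences from RefSeq are printed with the seed, bases 2 to 8, in capitals.
mmu-miR-335-5p: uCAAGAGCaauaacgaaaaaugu
mmu-miR-335-3p: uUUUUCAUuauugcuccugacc
mmu-miR-675-5p: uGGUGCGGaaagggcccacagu
mmu-miR-675-3p: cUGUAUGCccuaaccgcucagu
The 4 seeds differ. Libraries of poly(A) RNA do not measure mature microRNAs, so the levels of the host transcripts say nothing of theirs.

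Ndn encodes necdin, a MAGE family protein that binds E2F1 and restrains the cell cycle, and is expressed from the paternal copy. Its gene lies at chr7:62348277-62349928 on the plus strand and shares no exonic base with another gene. The 3 shControl libraries, in order of number, gave 650.0, 457 and 538 normalized counts, and the 4 shBrca2 libraries gave 275, 308, 245 and 263. The groups lay far apart beside their spread, with means of 548 ± 97.1 (SD, n = 3) and 273 ± 26.6 (SD, n = 4). The log2 fold change was -1.003 ± 0.18 (SE), or 2.00-fold lower, and ran from -1.12 to -0.86 without each library in turn. Of the 3 genes called lower, Ndn depended least on any one library.

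Igf2, Plagl1 and Peg3, the other paternally expressed genes, were not called. Igf2 encodes insulin-like growth factor 2, the main fetal growth factor of the family. By the vM39 annotation 4037 of its 6162 exonic bases are shared with other gene models, 601 of them with models on the opposite strand. Reads over those bases may not be told apart from reads of these models, here and in the ratio to H19 below. The shControl libraries, again in order, gave 65.8, 18.98 and 5.84 normalized counts, and the shBrca2 libraries gave 35.3, 10.5, 43.2 and 25.4. The shControl libraries spanned 11.3-fold and enclosed every shBrca2 library. The log2 fold change of -0.11 ± 0.64 (SE) had a 95% interval from -1.36 to 1.14, which reaches past a log2 change of 1 either way. Without shControl replicate 1 it was 1.20, and Igf2 was still not called.

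Plagl1 encodes a zinc finger factor that binds and activates several imprinted genes. In the same order it had 56.4, 31.6 and 8.76 normalized counts in shControl libraries against 26.7, 65.3, 25.9 and 31.5 in shBrca2 libraries. The shBrca2 values lay close together but for replicate 2, and the groups overlapped. The log2 fold change was 0.23 ± 0.53 (SE), and it turned to -0.21 without shBrca2 replicate 2 and to -0.22 without shControl replicate 4.

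Peg3 encodes a large zinc finger protein tied to growth and maternal behaviour. It had 9 to 30 counts per library, the fewest of the 9 genes by mean. After scaling these were 25.6, 26.6 and 13.6 in shControl libraries against 12.9, 12.8, 15.5 and 20.3 in shBrca2 libraries. The groups overlapped through shControl replicate 4. Its log2 fold change was -0.52 ± 0.42 (SE), with a 95% interval from -1.35 to 0.30.

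**Figure D1:**
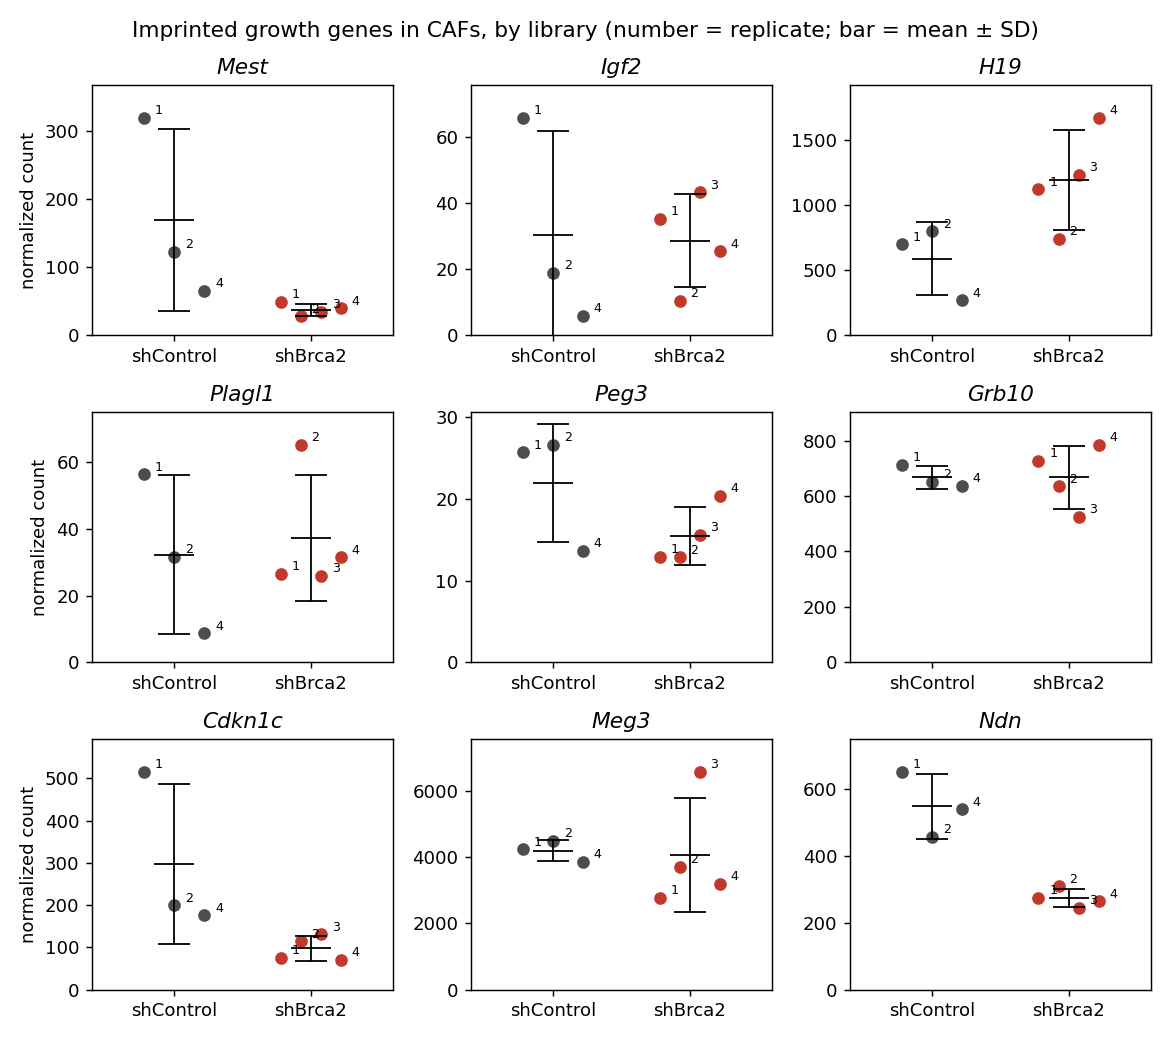
Normalized counts (linear axis, from 0) of the 9 imprinted growth genes in 3 shControl (grey) and 4 shBrca2 (red) CAF libraries, with replicate numbers, group means and SDs; the lower SD bar of Igf2 in shControl is cut at 0. In Mest, Cdkn1c and Ndn each shBrca2 point lies below each shControl point, and in the other 6 genes the groups overlap.

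Among the maternally expressed genes, Cdkn1c was called lower, H19 was called higher, and Grb10 and Meg3 were not called. Cdkn1c encodes p57, a CDK inhibitor that stops proliferating cells and limits fetal growth. The shControl libraries had 515, 199.9 and 176 normalized counts of it, and the shBrca2 libraries 75.7, 114, 131 and 70.1. Each shBrca2 library again lay below each shControl library, and shControl replicate 1 stood above the others. The log2 fold change was -1.61 ± 0.37 (SE), or 3.05-fold lower, and was -0.95 without shControl replicate 1, still called. By the vM39 annotation 625 of its 2155 exonic bases are shared with a gene model on the opposite strand.

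H19 is a long noncoding RNA at the same imprinted cluster as Igf2, on the maternal copy, and is known as a brake on growth. Normalized counts of 697, 797 and 269 in shControl libraries stood against 1119, 741, 1228 and 1668 in shBrca2 libraries. The groups overlapped, since shBrca2 replicate 2 lay below shControl replicate 2. Means were 588 ± 280 (SD, n = 3) and 1189 ± 382 (SD, n = 4), and the log2 fold change was 1.02 ± 0.34 (SE), or 2.02-fold higher. Leaving out shControl replicate 4 gave 0.67, leaving out shBrca2 replicate 4 gave 0.81, and H19 was called in neither case, nor by edgeR's quasi-likelihood test.

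Igf2 and H19 lie 72.6 kb apart on chromosome 7 and share enhancers, which act on Igf2 on the paternal copy and on H19 on the maternal copy. The log2 ratio of Igf2 to H19 within a library, with a pseudocount of 1, is compared here between libraries and not as a level between genes. Its values were -3.39, -5.30 and -5.31 over the shControl libraries, against -4.95, -6.06, -4.78 and -5.98 over the shBrca2 libraries. The values overlapped, with means of -4.67 ± 1.11 (SD, n = 3) and -5.44 ± 0.67 (SD, n = 4). The difference of -0.78 was smaller than the SD of the shControl libraries, and with each library left out in turn it ran from -1.10 to -0.14, the latter without shControl replicate 1. Cdkn1c lies 792 kb from Igf2 on the same chromosome, in a neighbouring imprinted domain, and was called in the direction opposite to H19.

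Grb10 encodes an adaptor that dampens insulin and IGF1 receptor signalling. The shControl libraries had 713, 650.2 and 637 normalized counts, the shBrca2 libraries 727, 635, 525 and 785. It was the steadiest of the 9 genes, with a log2 fold change of 0.005 ± 0.18 (SE) and a 95% interval from -0.34 to 0.35. Its sign changed with TMM scaling. Meg3, a long noncoding RNA of the Dlk1 cluster, had 4231, 4488 and 3858 normalized counts over the shControl libraries and 2771, 3698, 6561 and 3182 over the shBrca2 libraries. Of the shBrca2 libraries 3 lay below the shControl range and replicate 3 lay above it. The log2 fold change was -0.05 ± 0.27 (SE), and -0.38 without shBrca2 replicate 3.

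The 4 calls among 9 genes, 44.4%, stand beside 9.04% of all genes, and 3 of the 9 had groups that did not overlap with shBrca2 lower, beside 9.29% of all genes. In none were the groups apart with shBrca2 higher, beside 7.78% of all genes. Since the genes were chosen with this contrast known, nothing is read from those shares. The median log2 fold change of the 9 was -0.11, against 0.008 over all genes.

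**Figure D2:**
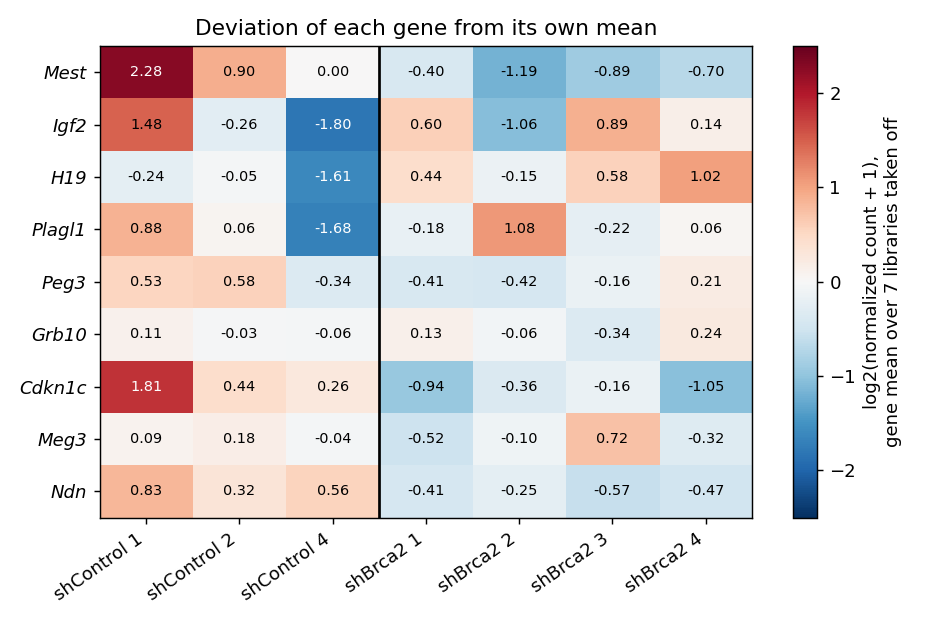
Each cell gives log2(normalized count + 1) of a gene in a library after its mean over the 7 libraries was taken off, red above and blue below that mean, with shControl left and shBrca2 right of the line. In shControl replicate 1 Mest lies 2.28 above its mean and Cdkn1c 1.81, while in shControl replicate 4 Igf2 lies 1.80, Plagl1 1.68 and H19 1.61 below theirs.

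The 9 genes varied unequally between libraries of the same group. In shControl the coefficient of variation was 104% for Igf2, 78.8% for Mest, 73.8% for Plagl1 and 63.7% for Cdkn1c. It was 17.7% for Ndn, 7.56% for Meg3 and 6.10% for Grb10. Meg3 varied more among the shBrca2 libraries, at 42.3%, where Ndn stood at 9.74%. Within shControl, replicate 4 was the lowest library for 8 of the 9 genes, the exception being Ndn. Over all genes, replicate 4 was the lowest shControl library for 29.6%. Replicate 1 was the highest for 6 of the 9, against 32.7% of all genes.

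**Figure D3:**
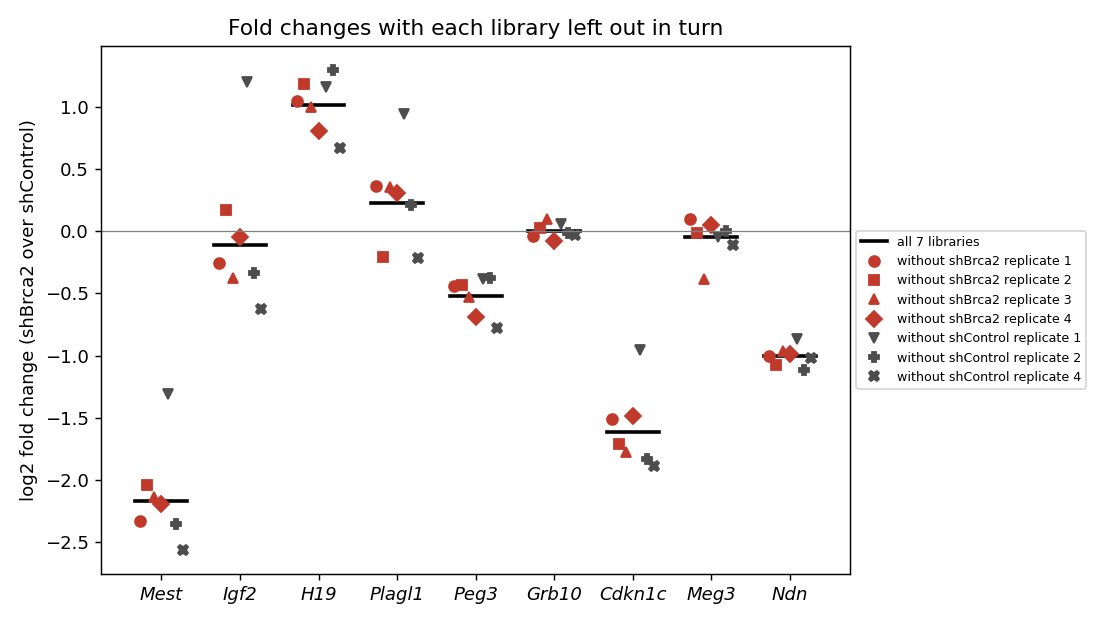
Log2 fold changes of the 9 genes from all 7 libraries (bars) and with each library left out in turn (red symbols for shBrca2, grey for shControl). Mest, Cdkn1c, Ndn and Peg3 stay below 0 and H19 above it, with Mest at -1.31 and Cdkn1c at -0.95 without shControl replicate 1, and the other 4 genes cross 0.

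Genes whose pattern over the 7 libraries was most like that of Mest were looked for among 6729 genes with a mean normalized count over 50, the imprinted growth genes left out. Likeness was the root mean square difference between 2 genes on the log2(normalized count + 1) scale, each centred on its own mean. The closest of these were Ptn (0.53), Mylip (0.57), G0s2 (0.58), Mgst3 (0.58) and Ccl11 (0.61). Ptn encodes the growth factor pleiotrophin, Mylip a ubiquitin ligase for the LDL receptor, G0s2 an inhibitor of fat lipolysis, Mgst3 a glutathione transferase and Ccl11 the chemokine eotaxin. Of the imprinted growth genes, measured apart from that search, Cdkn1c was closest to Mest, at 0.555 between Ptn and Mylip, ahead of Ndn at 0.74, and H19 farthest at 1.55. Ptn gave 628, 444 and 228 normalized counts in the shControl libraries, the same order as Mest, and 124, 99.1, 155 and 277 in the shBrca2 libraries, where the order differed from that of Mest and replicate 4 lay above shControl replicate 4.

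By the same measure, applied to other called genes after their values were seen, the closest genes to Ndn lay at smaller distances than those to Mest. The measure is not scaled for how much a gene varies, and Ndn varied less than Mest, so these distances do not rank the matches. Ramp2, a partner of the adrenomedullin receptor, lay at 0.10, as did Cd248, the fibroblast surface protein endosialin. The imprinted growth genes again left out, the closest to Cdkn1c were G0s2 (0.28) and Mgst3 (0.30), both among the 5 named for Mest. The closest to H19 was Notch3 (0.23), a Notch receptor of mural cells. These values describe 7 libraries that differ by group, and say nothing of shared control.

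Other imprinted genes were then counted, from lists of genes expressed from the paternal or maternal copy that leave out the 10. These lists, and all those below, were also chosen with earlier results of these data known. Nothing is read from their shares. Of 54 listed, 35 were measured; 3 rose and 5 fell, or 22.9%, against 9.04% of all genes, with a median log2 fold change of -0.21. Of the 15 paternally expressed genes 2 rose and 2 fell, and of the 20 maternally expressed genes 1 rose and 3 fell. Imprinting of some of them, Dcn and Gatm included, is known from the placenta and not from all tissues.

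Slc38a4, a transporter of neutral amino acids that is imprinted in the placenta, rose. The shControl libraries held 2 to 3 counts of it each, 2.56, 2.53 and 2.92 when scaled, and the shBrca2 libraries held 29.3, 24.5, 20.7 and 23.4 normalized counts. No libraries of the groups overlapped (log2 fold change 3.21 ± 0.62, DESeq2 adjusted p = 1.3e-06). Gatm, which makes the precursor of creatine, went from 22.2, 24.0 and 54.5 normalized counts in the shControl libraries to 184, 117, 152 and 169.7 in the shBrca2 libraries and rose by 2.21 ± 0.32 on the log2 scale (DESeq2 adjusted p = 2.2e-08). Both were called with any single library left out. Zdbf2, a paternally expressed gene tied to growth after birth, had at most 13 counts in a library; it rose by 2.54 ± 0.95 (adjusted p = 0.058) and lost its call in 6 of the 7 fits that left out a library.

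Sgce, a sarcoglycan gene next to Peg10, fell by 0.67 on the log2 scale (SE 0.19, adjusted p = 0.013), from 461 ± 70.0 normalized counts (SD, n = 3) to 290.0 ± 47.0 (SD, n = 4). Dio3, which inactivates thyroid hormone and lies in the Dlk1 and Meg3 cluster, fell by 0.89 (SE 0.32, adjusted p = 0.061). Slc22a18, a transporter gene in the cluster of Cdkn1c, fell by 1.07 (SE 0.37, adjusted p = 0.049). Trappc9, a vesicle trafficking gene, fell by 0.60 (SE 0.22, adjusted p = 0.081), and Dcn, the matrix proteoglycan decorin, by 0.77 (SE 0.28, adjusted p = 0.069). None of these 5 was called in every fit that left out a library: without shBrca2 replicate 1 the count was 0, and without shBrca2 replicate 4 it was 1. The most abundant imprinted genes that were not called were Gnas (-0.26 ± 0.14, adjusted p = 0.31) and Cd81 (-0.18 ± 0.15, adjusted p = 0.58) of the maternal list, and Impact (-0.25 ± 0.20, adjusted p = 0.58) and Peg13 (-0.67 ± 0.31, adjusted p = 0.21) of the paternal list.

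**Figure D4:**
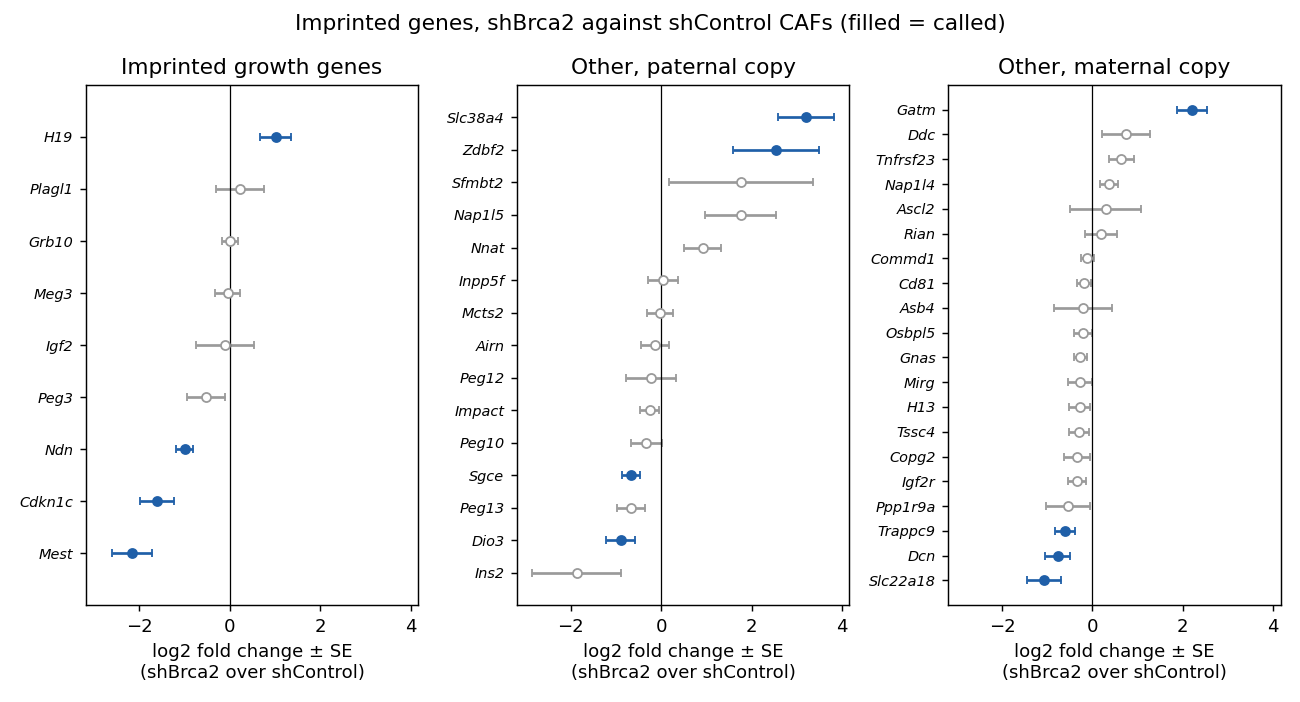
Log2 fold changes (shBrca2 over shControl, with SE) of the 9 imprinted growth genes, of 15 other paternally and of 20 other maternally expressed genes, with filled points for genes called. The lists hold points on both sides of 0, from Slc38a4 at 3.21 to Mest at -2.17.

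The partners and neighbours of the 10 genes were taken from 7 lists, of which 116 genes were measured. Of these 8 rose and 7 fell, 12.9% against 9.04% of all genes, and the median log2 fold change was 0.05. Without shBrca2 replicate 1 the counts were 4 and 1, and without shControl replicate 4 they were 3 and 1. Without shControl replicate 1 they were 5 and 2.

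Genes beside the 10 in their clusters gave 2 calls of 22, or 9.09%, about the 9.04% of all genes called. These were Dio3 and Slc22a18, both lower. The most abundant neighbours, Ctsd (-0.44 ± 0.16, adjusted p = 0.061, under the size needed) and Lsp1 (-0.34 ± 0.16, adjusted p = 0.22), were not called. In the receptor and signalling list of IGF and insulin, 2 of 26 were called, or 7.69%. Igf2bp2, an RNA-binding protein of Igf2 mRNA, rose by 0.73 ± 0.28 (adjusted p = 0.093) and Grb14, a relative of Grb10, fell by 1.02 on the log2 scale (SE 0.38, adjusted p = 0.082). Igf2r, the receptor that clears IGF2, had a log2 fold change of -0.34 ± 0.20 (adjusted p = 0.40), and Igf1r, which signals for it, one of -0.25 ± 0.30 (adjusted p = 0.76). Both were named after their values were seen. Igf2bp2 lost its call in 5 and Grb14 in 6 of the 7 fits that left out a library. The most abundant uncalled genes were Akt1 (-0.15 ± 0.19, adjusted p = 0.78) and Irs2 (-0.41 ± 0.28, adjusted p = 0.49).

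The list of DLK1 partners holds Notch genes and the regulators of fat cell formation that DLK1 holds back. Of its 14 genes 6 were called, or 42.9%, beside 9.04% of all genes, a share from which nothing is read, for the reason given above. Notch3 rose by 1.12 ± 0.32 (adjusted p = 0.014), Hey1, a Notch target, by 1.38 ± 0.34 (adjusted p = 0.0016) and Sox9, a factor of progenitor cells, by 1.04 ± 0.29 (adjusted p = 0.011). 3 factors of the adipogenic program fell: Pparg by 1.21 on the log2 scale (SE 0.46, adjusted p = 0.083), Cebpa by 0.86 (SE 0.26, adjusted p = 0.018) and Cebpd by 1.31 (SE 0.46, adjusted p = 0.056). Cebpa was even within the groups, with 62.3, 65.8 and 67.1 normalized counts over the shControl libraries and 31.0, 39.0, 41.5 and 32.5 over the shBrca2 libraries. Hey1 was called with any single library left out, Notch3 and Sox9 in all but the fit without shControl replicate 4, and the 3 that fell lost their call in 4 or more of the 7 fits. Cebpb (0.04 ± 0.20, adjusted p = 0.95) and Fn1 (-0.33 ± 0.14, adjusted p = 0.16) were not called.

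Among CDK inhibitors and the cyclins and kinases they bind, the partners of p57, Ccnd2 alone of 18 was called, falling by 0.53 on the log2 scale (SE 0.19, adjusted p = 0.062), a call lost in 5 of the 7 fits that left out a library. Cdk4 was not called, at 0.36 ± 0.13 (adjusted p = 0.062) under the size needed, nor was Ccnd3 (-0.22 ± 0.21, adjusted p = 0.68). In the list of the PLAG family and its growth network, 2 of 5 rose, beside 3.77% of all genes called higher. Hmga2, a chromatin protein of fetal growth, went from 3.60 ± 1.18 normalized counts (SD, n = 3) to 17.4 ± 3.47 (SD, n = 4), a rise of 2.25 ± 0.60 (adjusted p = 0.0029) that was called with any single library left out. Adcyap1r1, a receptor gene regulated by Plagl1, rose by 0.63 ± 0.22 (adjusted p = 0.062), also lost in 5 of the 7. Plagl2 (-0.06 ± 0.33, adjusted p = 0.94) and Tcf4 (0.05 ± 0.24, adjusted p = 0.94) were not called.

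None of 11 partners of Peg3 and Ndn was called, Maged1 (-0.07 ± 0.14, adjusted p = 0.88) and Maged2 (-0.01 ± 0.16, adjusted p = 0.97) being the most abundant. The last list held 20 DNA methylation and chromatin factors linked to imprinting, not all of which set or keep methylation. Of the 20, 2 rose and none fell, or 10% beside 9.04% of all genes. The other 18 were not called. A fold change above 0 was found in 17 of the 20, against 6495 of all 12771 genes, with a median of 0.29 against 0.008. Zfp57, which guards imprints in the embryo, rose by 1.92 ± 0.69 (adjusted p = 0.057) from 3 counts in each shControl library, and was not called in 6 of the 7 fits that left out a library. Ezh2, the histone methyltransferase of the Polycomb complex, rose by 0.92 ± 0.28 (adjusted p = 0.019), from 36.2 ± 5.86 normalized counts (SD, n = 3) to 68.0 ± 12.6 (SD, n = 4), and lost its call without shBrca2 replicate 1 and without shControl replicate 4. Trim28 (0.34 ± 0.17, adjusted p = 0.28) and Mbd3 (0.09 ± 0.14, adjusted p = 0.83) were not called.

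Markers of fibroblast states and of other cells moved with the same groups. The marker counts that follow stand beside 3.77% of all genes called higher and 5.27% called lower. The marker lists too were chosen with earlier results of these data known. Of 10 markers of adventitial progenitor-like fibroblasts 9 fell, the exception being Ackr3, and their summed level was 18459 to 30721 normalized counts in shControl and 6819 to 13844 in shBrca2 CAFs. Of 11 general fibroblast markers 2 fell, Dcn and Lum (-1.18 ± 0.35, adjusted p = 0.015, not called without shControl replicate 1), and the sum was 141876 to 160432 against 114638 to 136307. Of 11 myofibroblast and pericyte markers 3 rose, with overlapping sums of 3493 to 5995 and 3971 to 6521. Of 10 mesothelial markers 4 rose, Krt8, Krt18, Krt19 and Ezr, with overlapping sums of 1349 to 3957 and 3909 to 4577. Msln, Wt1, Upk1b, Gpm6a, Upk3b and Lrrn4 were not called, and the last 2 had fold changes below 0.

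Of 6 epithelial markers 3 rose, with sums of 56.4 to 157 against 193 to 299. Much of that sum was Krt7, a keratin gene, with means of 72.6 in shControl and 161 in shBrca2 CAFs. Of 4 immune markers Csf1r and C1qa rose, with sums of 159 to 196 against 301 to 320. Most of that sum was Csf1r, with means of 113 and 248, and the groups overlapped for C1qa. Lyz2 (-0.26 ± 0.35) and Tyrobp (0.52 ± 0.77) were not called. Epcam and Ptprc, the markers used to remove those cells, were not analysed here. The epithelial markers Cldn7, Elf3 and Spint1 were at 0 in 1 or more libraries. None of 6 endothelial or 2 adipocyte markers was called. Of 6 acinar markers 1 rose and 2 fell, and of 10 proliferation markers 1 rose. In each of these lists the sums of the groups overlapped. Even so, 5 acinar and 3 endothelial markers had each shBrca2 library below each shControl library, beside 9.29% of all genes. The other acinar marker, Cela1, had each shBrca2 library above, and the acinar median log2 fold change was -1.95. The part of these cells in the levels of the imprinted genes was not tested.

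Inside a group, the order of libraries differed in part between Mest and the progenitor markers. Replicate 1 of shControl was the highest library in both, with 319 normalized counts of Mest and a sum of 30721. In shControl the lowest sum of progenitor markers was in replicate 2 (18459), where Mest had 123 normalized counts, and the lowest Mest was in replicate 4 (65.2), where the sum was 29694. In shBrca2 the highest sum was in replicate 2 (13844), the library with the lowest Mest (28.0).

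**Figure D5:**
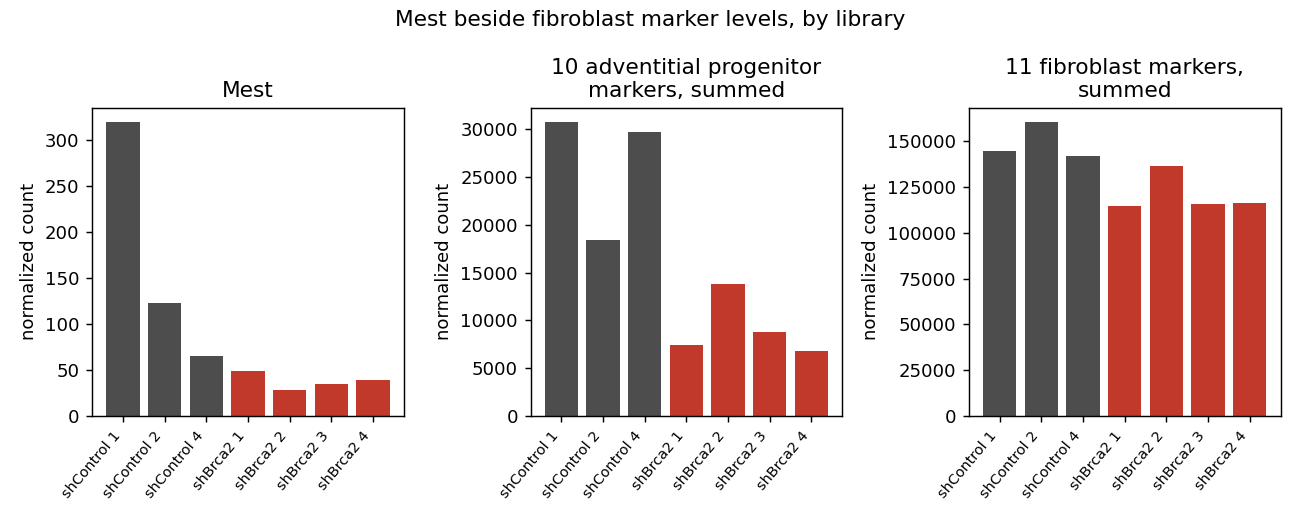
Normalized counts per library (bars, linear axes from 0) of Mest, of 10 adventitial progenitor markers summed and of 11 fibroblast markers summed, shControl in grey and shBrca2 in red. All 3 are lower in each shBrca2 library than in each shControl library, and shControl replicate 1 is highest in both Mest and the progenitor sum, while the order of the other libraries inside a group differs between them.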

How the data were processed

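The genes described here, and every gene list, were chosen with earlier results of these data known. The authors deposited raw counts per gene symbol for 7 CAF libraries, made with a variant of MARS-seq. They are unscaled whole numbers. Per the submitters' processing notes, reads were handled with bcl2fastq, cutadapt, STAR 2.4.2a and HTSeq on mm10. The annotation, the strand setting and the collapsing of molecular barcodes were not given in the sources used here, so counts may include PCR copies. The highest count of each gene in the table was 6 or more.

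Test and thresholds followed the study's methods. The likelihood ratio test called 481 genes higher and 673 lower. DESeq2's Wald test called 482 and 666, the counts that the study reports. In R 4.3.3, DESeq2 1.42.0 ran a likelihood ratio test of group on all 12771 genes and 7 libraries, with median-of-ratios size factors and Benjamini-Hochberg adjustment. A call needed an adjusted p under 0.1, an absolute log2 fold change over 0.5 and a mean normalized count over 5. Fold changes were not shrunken, 95% intervals are 1.96 SE either side, and 3 genes received no p. Every pair of libraries differed by more than counting error (mean chi-square per gene of 3.35 or more). Total counts of 1898679 to 5990579 set the counting error.

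The genes named are all 9 measured members, every called gene of the other imprinted and pathway lists, the 2 most abundant uncalled genes of each, the 5 genes most like Mest, and called fibroblast markers. Any other gene was named outside that rule, after values were seen. They include Copg2, Igf2r, Igf1r, Pdpn, Pdgfra, Ackr3, the genes set beside Ndn, Cdkn1c and H19, and the mesothelial, epithelial, immune and acinar markers named. Alternatives were edgeR 4.0.16 (quasi-likelihood, TMM), DESeq2's Wald test, TMM factors in DESeq2, a filter (10 counts in 3 libraries), an adjusted p under 0.05, a replicate block, another pseudocount for ratios and each library left out. The scripts were tested on simulated data. Promoters, microRNAs and positions are from RefSeq on GRCm38.p6, the build called mm10, and promoter windows were found for 8 of the 10 genes. Exon overlap and strand are from GENCODE vM39, of another build, and none of its coordinates are used.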

Additional observations from a re-analysis of the deposited data

Results flagged for a closer look

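Dixon's test was applied to the 4 shBrca2 libraries for 54 genes, the 9 imprinted growth genes and 45 others named, and by chance about 1 in 20 groups is marked. It marked 2 genes, both in shBrca2 replicate 2. Plagl1 had 65.3 normalized counts there, with the other shBrca2 libraries at 25.9 to 31.5. Notch3 had 72.3 there, with the others at 122 to 128. The test was not applied to the 3 shControl libraries.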

How the results depend on the processing

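The calls of Mest, Cdkn1c and Ndn held in every alternative, 3 genes lower in each. With each library left out in turn, log2 fold changes ran from -2.56 to -1.31 for Mest, -1.88 to -0.95 for Cdkn1c and -1.12 to -0.86 for Ndn. H19 ran from 0.67 to 1.30, Igf2 from -0.63 to 1.20, Plagl1 from -0.22 to 0.95, Grb10 from -0.079 to 0.099 and Meg3 from -0.38 to 0.10. Among uncalled partners, sign changed in Akt1 (-0.27 to 0.065), Cebpb (-0.11 to 0.22), Ccnd3 (-0.34 to 0.0028), Tcf4 (-0.10 to 0.16), Plagl2 (-0.18 to 0.11), Maged1 (-0.12 to 0.034) and Maged2 (-0.13 to 0.10). Grb10 was -0.0012 with TMM factors in DESeq2 and -0.0020 in edgeR. The same refits called 261 to 610 of all genes higher and 354 to 695 lower, 0 to 1 of the imprinted growth genes higher, 2 to 3 other imprinted genes higher and 0 to 4 lower, and 3 to 8 partner genes higher and 1 to 5 lower.

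edgeR called 0 imprinted growth genes higher and 3 other imprinted genes lower. At an adjusted p under 0.05 the counts were 0 and 2, with 5 partner genes higher and 2 lower. The cause of these changes was not tested. With a replicate block, 211 of all genes were called higher and 280 lower, 0 imprinted growth genes higher, 0 other imprinted genes lower, and 1 partner gene higher and 0 lower; that fit used fewer degrees of freedom, and Maged2 turned to 0.011. Same-numbered libraries deviated from their group means with correlations of -0.13, -0.17 and -0.18, and differently numbered ones with -0.21 to 0.29. With 3 same-numbered pairs, these values cannot decide whether the replicate numbers pair the libraries. The ratio of Dlk1 to Meg3 was not run, since Dlk1 was not analysed here. Low counts limit what can be said of Peg3, Plagl1 and Igf2, with as few as 9, 9 and 6 in a library.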
